A study of Mus musculus with 16 samples.

Results

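The LIM homeobox genes encode transcription factors that pair a DNA-binding homeodomain with LIM domains, zinc-binding folds that hold protein partners. They direct cell fates in the nervous system, pituitary gland, heart, kidney and gonad, and most of them have no established role in blood formation. Polycomb complexes keep such genes of other lineages silent. Polycomb repressive complex 2 writes H3K27me3 (trimethylation of a lysine in the tail of histone H3), and Polycomb repressive complex 1 writes H2AK119ub1 (monoubiquitination of a lysine near the end of histone H2A). H3K4me3, trimethylation of another lysine of histone H3, lies at promoters that are active or poised. Where it lies together with H3K27me3, the promoter is often called bivalent.

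The genes described here are Lhx1, Lhx2, Lhx3, Lhx4, Lhx5, Lhx6, Lhx8, Lhx9, Isl1 and Isl2, that is 10 of 21851 protein-coding genes. They were chosen by name after the H3K27me3 and H2AK119ub1 regions of these data had been seen, so their marking is a description and was not tested. ChIP-seq had been performed on hematopoietic stem cells (HSCs) from the bone marrow of C57BL/6 mice, with 10 weeks for the young and 20 months for the aged group. The sorted cells were negative for IL-7Rα (IL-7 in the labels), Lin, CD34, CD48 and Flt3 and positive for c-kit, Sca-1 and CD150. The mice were untreated as far as the labels say, and no allele or agent separates the ages. The labels list 2 libraries for each of the 3 marks and each age, with 2 input libraries per age. The deposited peaks form 1 pooled list per mark and age, 6 lists in all, so the spread between replicates is unknown and the ages are compared without a test.

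A gene's window is its body in the GENCODE M21 annotation (build mm10) with 5 kb on either side. A promoter reaches 1 kb up and down from the start of a coding transcript, and the family has 22 such starts. A listed peak or broad region that overlapped a promoter by at least 1 bp marked the gene. The lists differed in length between the ages, with 63142 young and 20419 aged H3K27me3 regions, 2593 young and 17768 aged H2AK119ub1 regions, and 11371 young and 6723 aged H3K4me3 peaks. A change in a mark and a difference in how well 2 lists detected it cannot be told apart. In the H3K4me3 lists the lowest background was 3.70 (young) and 3.52 (aged) reads covering a base, while the depth behind the broad lists was not recovered here. Genes that mark HSCs were checked by H3K4me3. It was listed at a promoter of 3 of 6 HSC genes in young HSCs (Procr, Hlf and Mecom) and of 4 of 6 in aged HSCs, where Kit was added. Ly6a and Slamf1, which encode gate antigens, had no listed peak at a promoter at either age, so a missing peak is no evidence that the mark was missing. The pan-blood gene Ptprc carried it at both ages. Of 10 genes whose products the gate leaves out, Cd34 alone carried it in young HSCs and none did in aged HSCs. Of 4 genes of other marrow cells, Cxcl12 alone carried it, at both ages and together with both Polycomb marks.

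Sequence shows what the marked DNA looks like. The windows of 200 bp below were taken at the highest CpG count within the widest family region of each Polycomb list, and within the family's H3K4me3 peak of highest rank at each age, avoiding untranslated regions. The widest family regions of young H3K27me3, aged H3K27me3 and aged H2AK119ub1 all lay over Lhx9 and gave the same window, chr1:138841647-138841846, which overlaps Lhx9 coding sequence and holds 21 CpG at 64.0% GC. The window from the widest young H2AK119ub1 region is chr11:84527306-84527505, 5′ of Lhx1 and in an intron of Lhx1os, a noncoding gene on the opposite strand, with 11 CpG. The young H3K4me3 window is chr3:154332338-154332537, 5′ of Lhx8 in an exon of the noncoding gene AI606473, with 16 CpG. The aged H3K4me3 window is chr2:36102500-36102699, in an intron of Lhx6, with 13 CpG. All are mm10 sequence written 5′ to 3′ on the minus strand, along which these 4 genes are transcribed, with each CpG in capitals.
Lhx9: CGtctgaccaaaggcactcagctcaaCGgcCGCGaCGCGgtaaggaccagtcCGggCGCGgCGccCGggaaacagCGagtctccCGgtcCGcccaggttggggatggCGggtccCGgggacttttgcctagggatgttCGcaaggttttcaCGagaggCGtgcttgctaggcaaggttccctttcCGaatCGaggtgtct
Lhx1: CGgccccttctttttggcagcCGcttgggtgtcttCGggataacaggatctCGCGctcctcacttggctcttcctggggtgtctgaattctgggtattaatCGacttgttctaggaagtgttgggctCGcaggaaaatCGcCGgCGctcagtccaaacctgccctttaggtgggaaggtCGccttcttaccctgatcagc
Lhx8: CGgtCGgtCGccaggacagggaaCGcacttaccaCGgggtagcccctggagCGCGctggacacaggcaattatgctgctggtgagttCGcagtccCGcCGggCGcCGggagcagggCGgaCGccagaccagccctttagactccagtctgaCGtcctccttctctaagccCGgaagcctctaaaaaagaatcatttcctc
Lhx6: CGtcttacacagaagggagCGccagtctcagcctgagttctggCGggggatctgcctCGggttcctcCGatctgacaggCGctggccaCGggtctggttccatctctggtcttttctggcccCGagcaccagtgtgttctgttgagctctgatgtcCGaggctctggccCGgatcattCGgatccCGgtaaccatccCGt

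All 10 genes carried H3K27me3 at a promoter in both lists, and all 10 were covered over less of their length in the aged list. In young HSCs H3K27me3 marked a promoter of 16.0% of all genes and in aged HSCs of 8.24%, and 7.83% carried it at both ages. H2AK119ub1 went the other way. It marked a promoter of 5 members in the young list (Lhx1, Lhx5, Lhx3, Lhx9 and Isl1), where 1.91% of all genes had it, and of all 10 in the aged list, where 14.0% had it. The 5 members marked at both ages stand beside 1.50% of all genes, and the 5 marked in the aged list alone (Lhx4, Lhx2, Lhx6, Lhx8 and Isl2) beside 12.5%. H3K27me3 and H2AK119ub1 marked promoters of the same gene for 5 members in young HSCs, against 1.65% of genes, and for all 10 in aged HSCs, against 4.99%. These counts depended on the q-value that a region had to reach. At a minimum −log10 q-value of 4, H3K27me3 marked 7 members (young) and 0 members (aged). At a minimum of 2, H2AK119ub1 marked 0 members in the young list, whereas promoters of 2.5 kb either side gave 9. With lists of equal length, made by keeping the highest-ranked regions of the longer one, H2AK119ub1 marked 5 members (young) and 4 members (aged), so the order of the ages turned.

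H3K27me3 covered 196 kb of the family's windows in young HSCs and 99.6 kb in aged HSCs, a ratio of 0.509. This ratio was 0.330 at a minimum −log10 q-value of 2 and 0.00346 at a minimum of 4. The windows sum to 299 kb, of which the mark covered 65.4% (young) and 33.3% (aged). By gene the young share ran from 44.3% (Lhx4) to 95.0% (Isl1) with a median of 70.3%, and the aged share from 21.7% (Lhx4) to 59.1% (Lhx1) with a median of 35.4%. The median over all genes was 0% in both lists, and the median over the 3506 genes with young H3K27me3 at a promoter was 8.16% young and 1.18% aged. At least 50% of the window was covered in the young list for 8 members, all but Lhx4 and Lhx8, and for 1.28% of all genes. At least 25% was covered in the aged list for 8 members, all but Lhx3 and Lhx4, and for 0.874% of all genes.

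In the lists as deposited, the difference between the ages was smaller in the family than over all regions. The aged share was lower than the young share for 10 of 10 members and for 95.6% of the 6228 genes with H3K27me3 in the window at either age, so the direction is that of the lists. The aged over young ratio of covered length ran from 0.364 (Lhx3) to 0.659 (Lhx1). Its median over all genes with young H3K27me3 in the window was 0.110, and the ratio of the complete lists was 0.244. At a minimum −log10 q-value of 2 the family had 0.330 and the lists 0.125, and with lists of equal length 0.528 and 0.465. At a minimum of 4 the order turned, with 0.00346 and 0.00471. Genes covered as broadly as the family were closer to it. The 272 other genes with a young share of at least 50%, a comparison chosen after these values were seen, had a median ratio of 0.451, beside 0.498 for the 8 members past that share.

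H2AK119ub1 covered 20.1 kb of the windows in young HSCs and 85.6 kb in aged HSCs, a ratio of 4.25. The young share ran from 1.58% (Lhx4) to 22.9% (Lhx1) and the aged share from 13.0% (Lhx4) to 59.8% (Lhx1), with medians of 6.73% and 30.1%. At least 20% of the window was covered in the aged list for 8 members, all but Lhx4 and Lhx8, and for 0.993% of all genes. By aged share, genes covered broadly by young H3K27me3 were closer to the family. The 272 other genes with a young H3K27me3 share of at least 50% had a median aged H2AK119ub1 share of 27.3%, beside 34.1% in the 8 members past that share. Their median aged over young ratio was 4.64 where young H2AK119ub1 was listed, beside 3.76. By this ratio they lay further from the members than the wider sets of genes given below. The share was higher in the aged list for 10 of 10 members and for 96.7% of the 6442 genes with the mark at either age. The ratio ran from 2.52 times (Lhx5) to 9.31 times (Lhx6), below the 7.83 times of the complete lists for 6 members and above it for Lhx3, Lhx4, Lhx6 and Isl2. Its median over the members was 3.76, beside 3.14 over all genes with young H2AK119ub1 in the window and 3.64 over those that also had young H3K27me3 at a promoter. When the aged list was limited to the 2593 regions of highest rank, as many as the young list holds, the family's ratio was 1.12 and 4 members kept an aged H2AK119ub1 promoter. With lists of equal length the family's aged and young lengths were thus close, while the lists themselves had a ratio of 1.51. At a minimum −log10 q-value of 2 the family had 10.4 and the lists 9.62, and at a minimum of 4 the family had 3.95 and the lists 37.2.

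**Figure D1:**
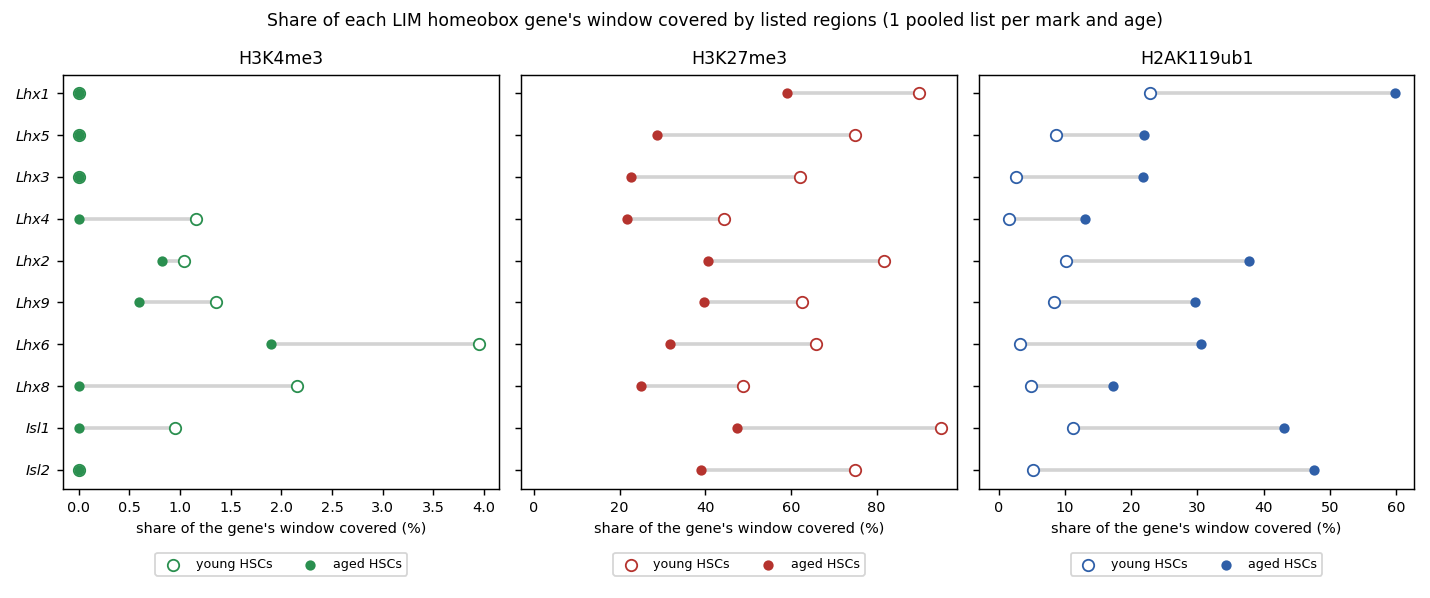
Share of each gene's window (gene body and 5 kb either side, in percent) covered by listed regions of H3K4me3, H3K27me3 and H2AK119ub1, with open circles for young and filled circles for aged HSCs and 1 pooled list per point. H3K27me3 is lower and H2AK119ub1 higher in the aged list for all 10 genes, and H3K4me3 reaches at most 3.95% (Lhx6, young).

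The 10 genes form paralogue pairs, and the pairs were described in turn. Lhx1 acts in the head organizer and in the kidney, and Lhx5 in the forebrain. Lhx1 (ENSMUSG00000018698.15, chromosome 11, 84518284 to 84525535, minus strand) had the highest share of its window under H2AK119ub1, although Lhx2 had more by length. The mark covered 22.9% of its window in young and 59.8% in aged HSCs, rank 11 among all genes at both ages. H3K27me3 went from 89.8% (rank 72) to 59.1% (rank 38), the highest aged over young ratio of the family. The young H3K27me3 consisted of 3 regions, the widest of 8278 bp, and the aged of 8 regions. Lhx5 (ENSMUSG00000029595.9, chromosome 5, 120431699 to 120441223, plus strand) started from 74.9% and reached 28.7%, with H2AK119ub1 at 8.68% and 21.9%. At its only coding start site the H2AK119ub1 overlap was similar, 299 bp in the young and 264 bp in the aged list. No H3K4me3 peak lay in either window at either age. The windows of this pair also hold Lhx1os, the 5′ end of Aatf and the antisense gene Gm27199, and a region over shared sequence cannot be assigned to 1 gene.

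Lhx3 and Lhx4 act in the pituitary gland and in motor neurons. Lhx3 (ENSMUSG00000026934.15, chromosome 2, 26200212 to 26208289, minus strand) had the lowest aged over young ratio of H3K27me3, with 62.0% and 22.6% of its window. Its young H2AK119ub1 was 2 regions of 464 bp in all and its aged H2AK119ub1 7 regions of 3943 bp. No H3K4me3 peak lay in its window, which also holds the antisense gene Gm27196 and part of Qsox2. Lhx4 (ENSMUSG00000026468.14, chromosome 1, 155698031 to 155751684, minus strand) is the longest member, with 53654 bp, and had the lowest share of each Polycomb mark in both lists. In length it stood higher, with 28.2 kb of young and 13.8 kb of aged H3K27me3. The regions lay towards its 5′ end, and the widest young region of 11083 bp was in an intron. Lhx4 had a pair of young H3K4me3 peaks, at the promoter and 4372 bp from the start site, and 0 aged peaks.

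Lhx2 acts in the eye, the forebrain and the hair follicle, and its forced expression has been used to expand hematopoietic progenitors in culture. Lhx9 acts in the gonad. Lhx2 (ENSMUSG00000000247.11, chromosome 2, 38339281 to 38369733, plus strand) held the most young H3K27me3 by length, 33.0 kb in 10 regions, and 16.4 kb in 21 regions in aged HSCs. Its H2AK119ub1 was 4.14 kb in 13 young regions and 15.3 kb in 21 aged regions. The 2 coding start sites differed. At 38339281 the aged list had 0 bp of H3K27me3 within 1 kb, after 1488 bp in the young list, and 1449 bp of H2AK119ub1, after 0 bp. At 38350759 H3K27me3 went from 1047 bp to 741 bp and H2AK119ub1 from 0 bp to 1225 bp. Lhx9 (ENSMUSG00000019230.14, chromosome 1, 138825186 to 138848577, minus strand) held the widest family region in 3 of the 4 Polycomb lists. They were young H3K27me3 at chr1:138835236-138848020 (12785 bp), aged H3K27me3 at chr1:138838034-138843368 (5335 bp) and aged H2AK119ub1 at chr1:138839615-138844890 (5276 bp). Both aged regions lay wholly within the young one, and the printed Lhx9 window is common to the 3 regions. The share of the Lhx9 window went from 62.6% to 39.8% for H3K27me3 and from 8.33% to 29.6% for H2AK119ub1. All 5 coding start sites of Lhx9 carried both Polycomb marks in the aged list.

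Lhx6 acts in cortical interneurons, and Lhx8 in cholinergic neurons, tooth and oocyte. Lhx6 (ENSMUSG00000026890.19, chromosome 2, 36081953 to 36105408, minus strand) had the highest aged over young ratio of H2AK119ub1, with 1.10 kb and 10.2 kb. Its H3K27me3 went from 65.8% to 31.8% of the window, and at its 4 coding start sites both marks were present in the aged list. Lhx8 (ENSMUSG00000096225.7, chromosome 3, 154306294 to 154330659, minus strand) had 16.8 kb of young and 8.60 kb of aged H3K27me3, or 48.8% and 25.0% of its window. H2AK119ub1 went from 4.87% to 17.2%. At its 2 promoters no young H2AK119ub1 was listed, while the aged list covered 1284 bp and 1294 bp of them.

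Isl1 marks cardiac progenitors, motor neurons and pancreatic islets, and Isl2 acts in motor neurons and retinal ganglion cells. Isl1 (ENSMUSG00000042258.13, chromosome 13, 116298281 to 116309689, minus strand) was the most fully covered member in young HSCs, with 95.0% of its window in 3 H3K27me3 regions, rank 31 among all genes. The aged list had 13 regions over 47.3%. H2AK119ub1 went from 11.2% to 43.1%, but not at the promoters, where the longest overlap was 221 bp in the young and 194 bp in the aged list. The added length of Isl1 thus lay away from its start sites. Isl2 (ENSMUSG00000032318.12, chromosome 9, 55538672 to 55546180, plus strand) had 74.9% and 39.0% of its window under H3K27me3. Its H2AK119ub1 went from 5.12% to 47.5%, and at its coding start site from 0 bp to 1754 bp. The windows of Isl2 and Scaper overlap, and the antisense gene Gm17226 lies within Isl2.

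**Figure D2:**
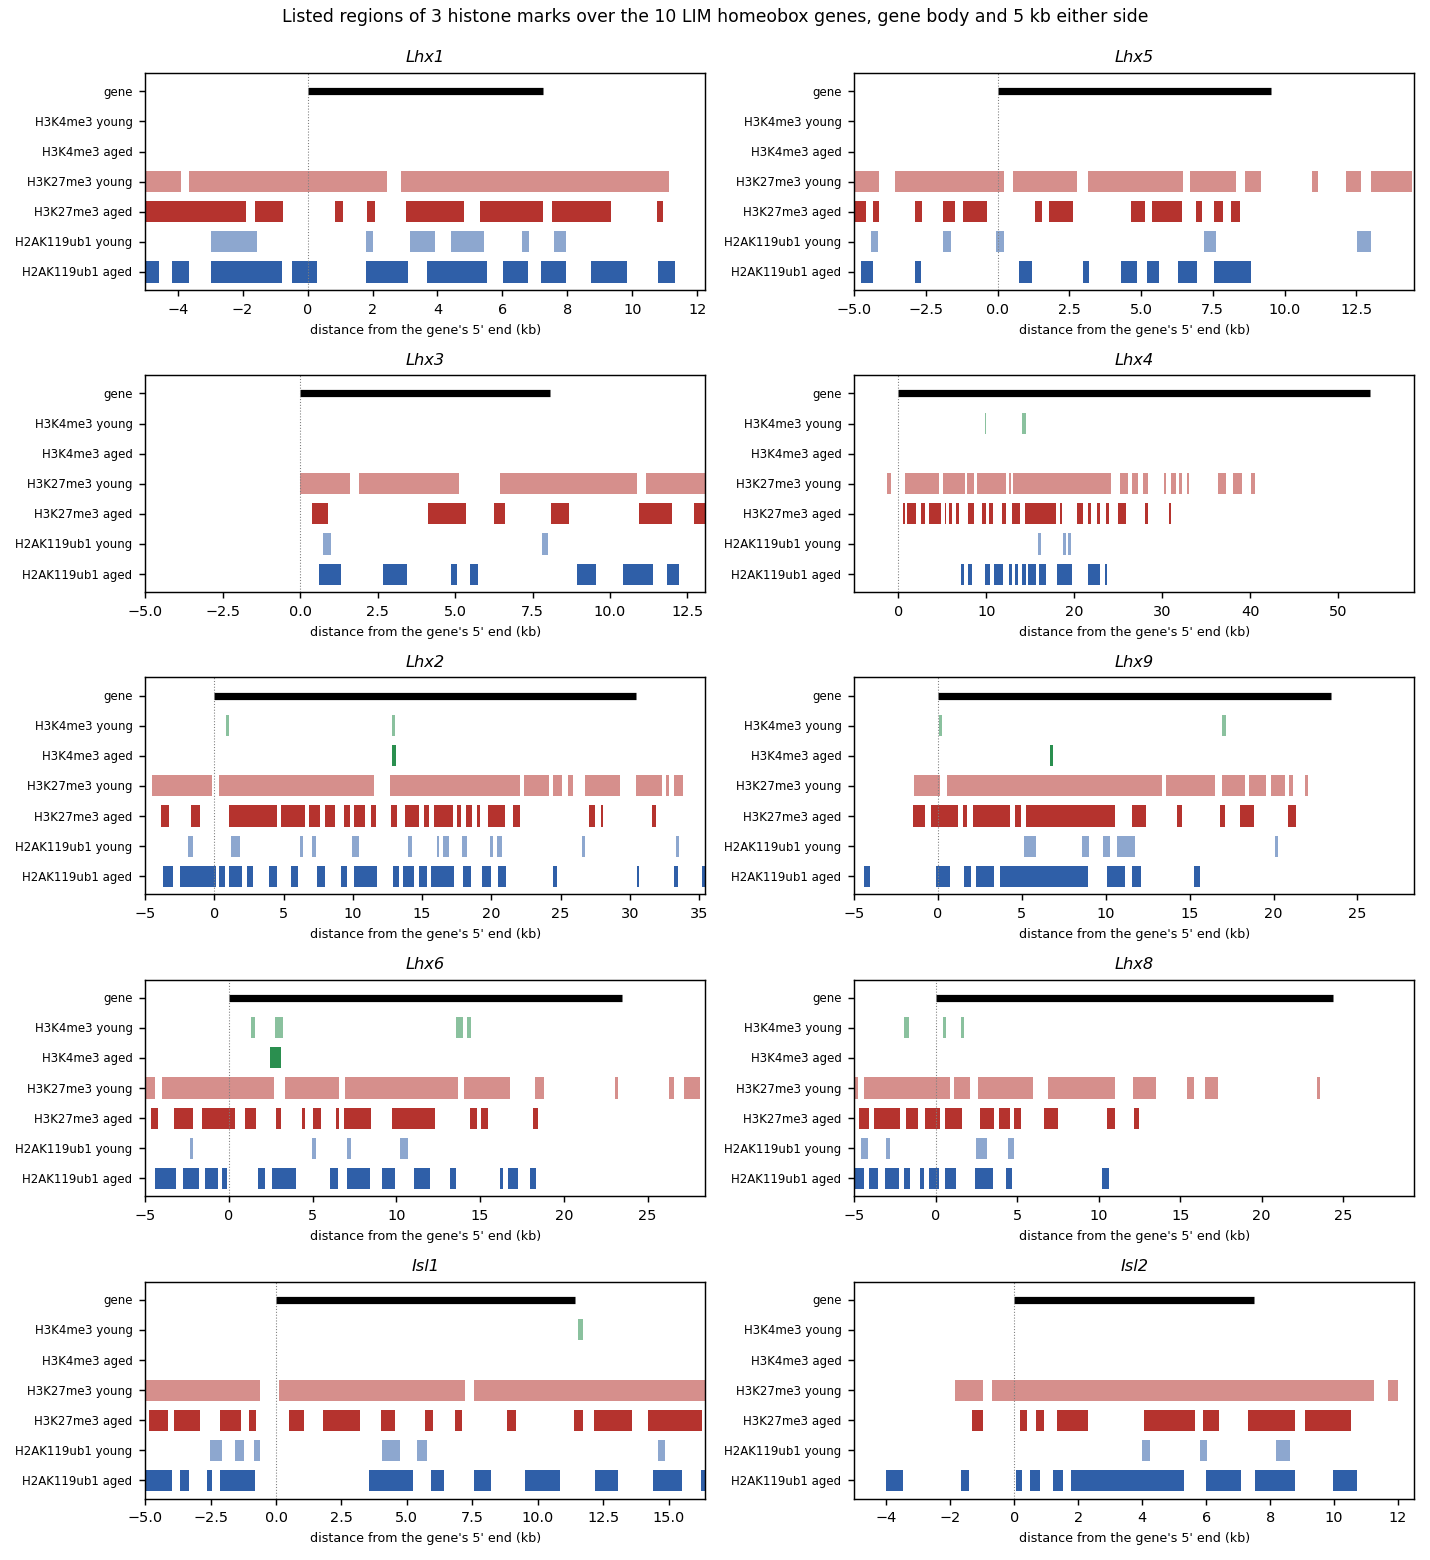
Listed regions of each mark and age over the 10 genes, with the distance from the gene's 5′ end along transcription in kb on the horizontal axis and the gene body as a black bar. Where the young list has long H3K27me3 regions the aged list has several shorter ones, and a difference in detection cannot be told apart from a change. Aged H2AK119ub1 lies mostly within the young H3K27me3 regions, which cover 65.4% of the windows.

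In the lists as deposited, the family's young H3K27me3 regions were long, and the aged ones were shorter and more numerous. H3K27me3 in the windows consisted of 75 young regions with a median width of 1393 bp and 126 aged regions with a median of 498 bp. The median of the complete lists moved less, from 397 bp to 363 bp. All 10 members had more aged than young regions for each Polycomb mark in these lists, but the order of the ages depended on the cutoff. The family's H3K27me3 regions were 64 young and 62 aged at a minimum −log10 q-value of 2, and 15 and 1 at a minimum of 4. With lists of equal length they were 60 and 126. Under the same 3 settings H2AK119ub1 regions were 17 and 55, 1 and 3, and 51 and 28. The share of other genes with more aged regions was not counted. The complete lists held 2593 young and 17768 aged H2AK119ub1 regions, but 63142 young and 20419 aged H3K27me3 regions. Regions wider than 5 kb numbered 12 in the family's young H3K27me3, of 492 in the list, and 1 in its aged H3K27me3, of 8 in the list. H2AK119ub1 regions went from 51 with a median of 325 bp to 110 with a median of 603 bp, and the family held the 1 aged region wider than 5 kb. The median fold over background differed less between the ages than the median width. Fold is known only for regions past the caller's cutoff, so it cannot show whether enrichment itself changed less. The median fold of the family's H3K27me3 regions was 3.52 young and 3.30 aged, beside 3.10 and 3.13 in the lists, and that of H2AK119ub1 regions 3.13 and 3.36, beside 3.24 and 3.22.

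Each member's widest young H3K27me3 region was followed into the aged lists. In the 12785 bp of Lhx9, 6 aged H3K27me3 pieces covered 75.5% and 6 aged H2AK119ub1 pieces 66.1%. In the 11203 bp region of Lhx2, 7 H3K27me3 pieces covered 73.4% and 8 H2AK119ub1 pieces 48.4%. In the 11933 bp region of Isl2, 7 H3K27me3 pieces covered 54.4% and 7 H2AK119ub1 pieces 63.1%. The lowest values were in Lhx3, where 2 pieces covered 16.9% of 4437 bp, and for H2AK119ub1 in Lhx5, where 1 piece covered 5.58% of 3832 bp. All 10 widest young regions held some aged H3K27me3 and some aged H2AK119ub1. Wide regions of other genes were not followed in this way, and the part of width in this count was not tested.

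**Figure D3:**
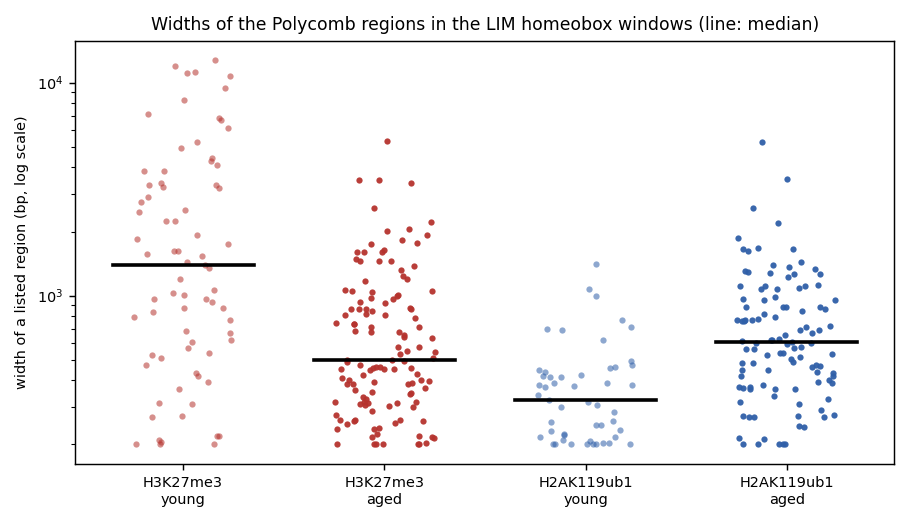
Width in bp, on a log axis, of every listed Polycomb region that overlaps a LIM homeobox window, 1 point per region, with the median as a line. The H3K27me3 median is 1393 bp young and 498 bp aged, and the H2AK119ub1 median is 325 bp young and 603 bp aged.

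The aged regions of both marks lay largely within young H3K27me3. Of the family's aged H3K27me3 length, 95.2% lay in young H3K27me3, against 66.4% genome-wide, and of the young length 48.5% was kept in the aged list, against 16.2%. Of the aged H2AK119ub1 length, 92.0% lay in young H3K27me3, against 49.8%, and 56.5% lay in aged H3K27me3, against 26.4%. Young H3K27me3 covered 65.4% of the family's windows, but only 40987195 of 2725521370 bp genome-wide. The genome-wide shares thus start from a far smaller base, and the part of this in the differences was not tested. H2AK119ub1 covered 9.83% of the family's H3K27me3 in young and 48.6% in aged HSCs, against 1.74% and 19.8%. These values were 10.1% and 16.0% with lists of equal length, and the order turned at a minimum −log10 q-value of 4, with 0.206% and 0%. Within young H3K27me3 that the aged list no longer held, 32.3% carried aged H2AK119ub1, and within the kept length 48.6%, against 5.46% and 28.0% genome-wide. The kept length had the higher share in 9 members and the lower in Lhx3, with 32.2% and 25.7%. By count, 97.6% of aged H3K27me3 regions overlapped a young region, against 66.0% of the list, and 62.7% of young regions an aged one, against 15.4%. For H2AK119ub1, 78.4% of young and 31.8% of aged regions were shared, against 50.9% and 7.07%. With lists of equal length the family's shares were 27.5% and 46.4%, in the opposite order, and at a minimum −log10 q-value of 2 they were 35.3% and 10.9%. A wide region overlaps another more easily than a narrow one, and the part of width in these shares was not tested. In the 272 other broadly covered genes the median kept share of young H3K27me3 was 42.8%, beside 49.6% in the 8 members, and 96.6% of aged H2AK119ub1 lay in young H3K27me3, beside 91.8%. The median share of aged H3K27me3 that carried aged H2AK119ub1 was 44.4% in these genes and 51.1% in the 8 members.

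With distance from a start site the family's coverage stayed high, while that of all other genes with a young H3K27me3 promoter fell away. Young H3K27me3 covered 80.0% of the members' bases within 500 bp of a start site, 88.0% between 2000 and 3000 bp and 82.7% between 7500 and 10000 bp. In the 3496 other genes with young H3K27me3 at a promoter the same bins had 37.0%, 26.2% and 8.49%. Most of these genes are less broadly covered than the members. The 272 broadly covered genes were not profiled by distance, so this pattern cannot be called particular to the family. The members' bins held 22000 bases between 4000 and 5000 bp but only 26548 in the wider bin between 7500 and 10000 bp. Aged H3K27me3 covered 45.4%, 57.5% and 30.5% of the members' bases in these bins. Aged H2AK119ub1 was highest between 1000 and 2000 bp, at 59.1%, and had 36.5% between 7500 and 10000 bp.

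**Figure D4:**
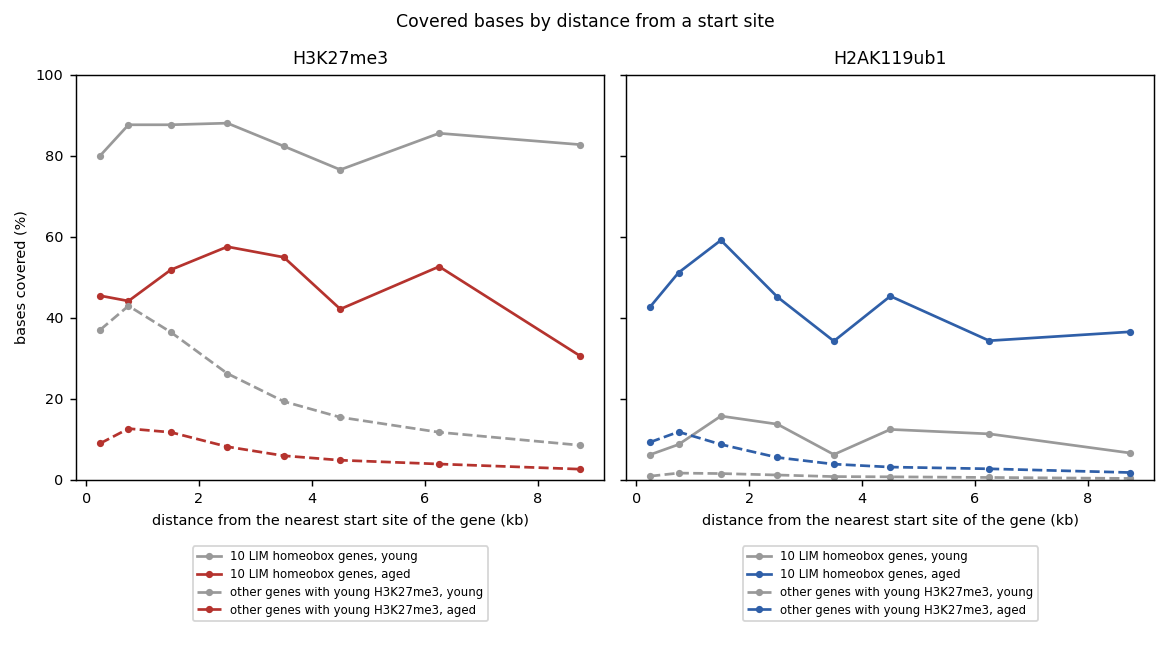
Percent of bases covered by H3K27me3 (left) and H2AK119ub1 (right) against the distance in kb from the nearest coding start site, for the 10 members (solid lines) and the 3496 other genes with young H3K27me3 at a promoter (dashed lines), in grey for young and in colour for aged HSCs. Young H3K27me3 of the members stays between 76.5% and 88.0% out to 10000 bp, while that of the other genes declines to 8.49%. The other genes were not limited to broadly covered ones.

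Most H3K4me3 peaks of the family lay inside H3K27me3. The mark covered a median of 0.998% of a member's window in young and 0% in aged HSCs, beside means of 0.718% and 0.382% and medians of 0% over all genes. It marked a promoter of 5 members in the young list (Lhx4, Lhx2, Lhx9, Lhx6 and Lhx8), beside 33.8% of all genes, and of 1 member in the aged list (Lhx9), beside 23.3%. The counts were 2 and 1 with lists of equal length, and 5 and 3 with promoters of 2.5 kb either side. Both it and H3K27me3 were listed at the same promoter for the same 5 members in young HSCs, against 2.71% of genes, and for Lhx9 in aged HSCs, against 0.654%. The windows held 14 young peaks in 6 members and 3 aged peaks in 3 members. Of the young peaks 13 overlapped young H3K27me3, as did 7.40% of the list, and all 3 aged peaks overlapped aged H3K27me3, as did 2.53% of the list. Young H3K27me3 covers 65.4% of these windows by length. The peaks were 200 to 634 bp wide with 15 to 23 reads at the summit, beside list medians of 20 (young) and 19 (aged).

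The highest-ranked young peak lay 1616 bp 5′ of Lhx8, at chr3:154332275-154332587, with 23 reads over a background of 3.96 reads, a fold of 4.84 and a −log10 q-value of 6.67, rank 1633 of the list. No aged peak overlapped it. The highest-ranked aged peak lay in Lhx6 at chr2:36102319-36102952, with 22 reads, a fold of 5.08 and a −log10 q-value of 6.42, rank 648. It overlapped a young peak of 447 bp by 329 bp. The only other shared peak was in an intron of Lhx2, with 16 reads young and 17 reads aged. In Lhx9 the listed promoter peaks of the young and the aged list lay near different start sites and did not overlap. The young peak lay 54 bp from the 5′-most site, and the aged peak of 15 reads lay 521 bp from an internal site, partly inside the printed sequence. For the weakest peaks, at 15 or 16 reads, a peak absent at 1 age cannot be told apart from one just below the caller's limit.

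The members' promoters were rich in CpG, the dinucleotide dense at many Polycomb targets. Observed over expected CpG, taken as the median over a gene's promoters, ran from 0.377 (Lhx3) to 0.789 (Isl1) with a median of 0.669. The median of all genes was 0.465, and of genes with young H3K27me3 at a promoter 0.509. Lhx3 and Lhx9 (0.454) stood below the median of all genes. Within 250 bp of a start site the difference was smaller, with medians of 0.661 in the family and 0.591 in all genes. The GC share was 55.2% in the family, 51.2% in all genes and 54.7% in the genes with young H3K27me3. Within the windows, length with H3K27me3 at both ages and length with it in the young list alone were alike, with CpG ratios of 0.384 and 0.358, and sequence outside all Polycomb regions had 0.289. The 6.89 kb of aged H2AK119ub1 outside young H3K27me3 had 0.547 and 41.5 CpG per kb. By region, the median CpG ratio of the family's aged H3K27me3 was 0.320, beside 0.206 in the list, and of its aged H2AK119ub1 0.320, beside 0.240.

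**Figure D5:**
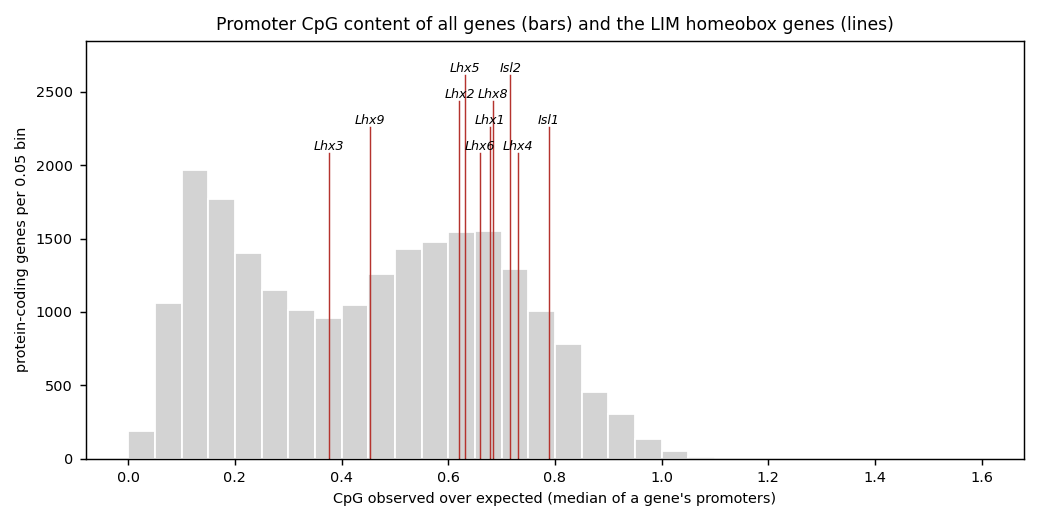
Observed over expected CpG within 1 kb of a start site (median over each gene's promoters) for all 21851 protein-coding genes as grey bars, in bins of 0.05, with the members as labelled red lines. The other 8 members lie between 0.621 and 0.789, while Lhx9 (0.454) and Lhx3 (0.377) lie lower.

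Genes that work with LIM homeobox proteins were read in the same lists. The list holds Lmx1a and Lmx1b (the other LIM homeobox genes), Ldb1 and Ldb2 (adaptors that bind LIM domains), Ssbp2, Ssbp3 and Ssbp4 (partners of the adaptors), Lmo1 to Lmo4 (LIM-only proteins) and Rlim (a ubiquitin ligase for the adaptors). Of these 12 genes, 7 carried H3K4me3 at a promoter in young and 3 in aged HSCs, 5 and 3 carried H3K27me3, and 0 and 4 carried H2AK119ub1. The members' own counts, of 10, were 5 and 1, 10 and 10, and 5 and 10. Without Lmx1a and Lmx1b the counts over 10 genes were 6 and 3, 3 and 1, and 0 and 2. Of the 12, Lmx1b came closest to the members, with 48.7% of its window under young and 15.9% under aged H3K27me3, and with 4.74% and 14.3% under H2AK119ub1. Lmx1a had 22.6% and 5.37% under H3K27me3. Ldb1 and Ssbp3 carried H3K4me3 at both ages and H3K27me3 at neither. Lmo2, a component with Ldb1 of the transcription complexes of blood stem cells, had 4.55% of its window under young and 2.27% under aged H3K4me3 and no Polycomb region. Ldb2 and Lmo4 carried H3K4me3 in the young list alone, and Ssbp2 and Ssbp4 carried none of the marks at a promoter. Lmo1 carried H3K27me3 at both ages and H2AK119ub1 in the aged list. Lmo3 carried H3K4me3 at both ages, H3K27me3 in the young list and H2AK119ub1 in the aged list, and Rlim carried young H3K27me3 alone.

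The genes outside the family with the most similar marking were also developmental regulators. Similarity was the Euclidean distance, in percentage points over the 6 covered shares, from the members' medians. The nearest was Irx5, a homeobox gene, at 4.59 points, with 68.7% young and 32.5% aged H3K27me3 and 5.65% young and 27.3% aged H2AK119ub1. It was followed by Nkx2-2 (5.40 points), a homeobox gene of the ventral neural tube, Hand1 (6.11 points), a regulator of heart and placenta, Foxd4 (6.95 points), a forkhead gene, and Sox17 (7.04 points), a regulator of endoderm and of fetal HSCs. The members themselves lay between 7.66 points (Lhx6) and 45.7 points (Lhx1) from their own medians, so the 5 genes were nearer to the family's centre than any member.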

How the data were processed

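HSCs were cross-linked, and chromatin was cut with micrococcal nuclease and sonication. Single reads were aligned to mm10 with Bowtie2 by the authors. The submitters' processing notes name MACS2 2.2.6, and the peak names in the files show a cutoff of 0.1 for the broad lists and a q-value of 0.05 for H3K4me3. The lists deposited by the authors have the layout of narrow peaks for H3K4me3 and of broad regions for H3K27me3 and H2AK119ub1. Column values deposited by the authors are the fold enrichment (a linear ratio), the −log10 of the p-value and of the q-value, a score for display and, for H3K4me3, the summit offset. The names of H3K4me3 peaks show 2 library numbers and those of broad regions 1, so the broad lists may hold reads of 1 replicate. Multiply aligned and duplicated reads and the caller's threshold affect which peaks are listed.

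Regions on chromosomes 1 to 19, X and Y were used. Overlaps, covered lengths and base composition came from pysam 0.24.0, scipy 1.17.1, pandas 2.3.3 and numpy 2.4.6 under Python 3.11.15, checked with bedtools 2.31.1, and tested on simulated data. Start sites came from the basic set of GENCODE M21. Reads at H3K4me3 summits were recovered from the fold and the p-value, and 100% of peaks gave a whole number within 0.01. CpG observed over expected is the CpG count times the length, divided by the product of the C and G counts. Plots were drawn with matplotlib 3.10.9. The members, the gene lists and the rule for named genes were chosen with earlier results of these data known. The rule named all members, the LIM partner genes, the widest family region of each list and the 5 nearest genes by covered share. Alternatives changed the q-value minimum, the number of regions, the promoter, the start sites, the overlap and the window. A marker gene of cells outside the gate is not reported here.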

Additional observations from a re-analysis of the deposited data

How the results depend on the processing

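Each mark and age has 1 list, deposited as pooled, so the spread between animals or libraries is unknown and the values describe lists. No paired analysis was possible because no list of a single replicate was used here, and for the same reason no replicate was left out. Of 159 values recomputed under alternatives, 109 stayed close to the reported value and 50 did not. The 3 length ratios stayed on the same side of 1. The order of the ages turned for H2AK119ub1 promoters of the members and shared H2AK119ub1 regions with lists of equal length, and for H3K27me3 carrying H2AK119ub1 at the −log10 q-value minimum of 4. The members' region counts, not among these 159 values, also turned. They did so for H3K27me3 at both q-value minima and for H2AK119ub1 with lists of equal length. Close means within 1.5 times or, for shares of regions, within the Wilson interval of the reported share. The cause of these differences was not tested.

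A −log10 q-value of at least 4 left 39 aged H3K27me3 and 5 young H2AK119ub1 regions in the lists. Members marked at a promoter were then 2 (young) and 0 (aged) for H3K4me3, 0 for aged H3K27me3, and 0 (young) and 1 (aged) for H2AK119ub1, while 7 had young H3K27me3. H3K4me3 with a Polycomb mark was found at a promoter of 1 young and 0 aged members. Marked partner genes were 3 for young H3K4me3, 1 and 0 for young and aged H3K27me3, and 0 for aged H2AK119ub1. The H3K27me3 length ratio was 0.00346, and 0.206% (young) and 0% (aged) of H3K27me3 carried H2AK119ub1. Shared regions were 100% of aged H3K4me3 and 0% of both Polycomb marks at both ages. With a minimum of 2, 0 members carried young H2AK119ub1 at a promoter, the length ratios were 0.330 for H3K27me3 and 10.4 for H2AK119ub1, and 2.28% of young H3K27me3 carried H2AK119ub1. Shared regions were 43.8% of young H3K27me3, 35.3% of young and 10.9% of aged H2AK119ub1.

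With lists of the same length at both ages, 2 members carried young H3K4me3, also with a Polycomb mark, and 4 carried aged H2AK119ub1. The partner genes had 3 and 1. Length ratios were 0.532 for H3K4me3 and 1.12 for H2AK119ub1, and 0.528 for H3K27me3, close to the reported 0.509. Aged H3K27me3 carried H2AK119ub1 over 16.0%, and shared regions were 73.3% of young H3K27me3, 27.5% of young and 46.4% of aged H2AK119ub1. Promoters of 2.5 kb either side and start sites of all transcripts each gave 3 members with aged H3K4me3, 3 with aged H3K4me3 and a Polycomb mark, and 9 with young H2AK119ub1. The wider promoter also gave 2 partner genes with young H2AK119ub1. Under an overlap of at least 50% of a region, 29.3% of young H3K27me3 regions and 60.8% of young and 5.45% of aged H2AK119ub1 regions were shared. With regions within 1 kb joined, 100% of aged H3K27me3 and 43.8% of aged H2AK119ub1 regions were shared. A window of 20 kb either side gave 50.9% for young H3K27me3. Each CpG value stayed close under both of its alternatives, but the difference between the family and all genes did not stay the same. With 250 bp either side of a start site the observed over expected CpG was 0.661 in the family and 0.591 in all genes. With start sites of all transcripts it was 0.619 and 0.376, beside the reported 0.669 and 0.465.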
